A study of Mus musculus with 24 samples.

Results

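The complement genes measured here are 32 genes that encode the recognition molecules, proteases, central and terminal components, receptors and regulators of the complement system. They were taken from a list of symbols and matched to the Ensembl identifiers of the count table, which found 32 of 32 among 41388 genes. By role they are 3 chains of C1q, 4 lectin-type recognition molecules, 6 proteases, 3 central components (C3, C4b and properdin), 4 terminal components, 4 receptors and 8 regulators. Of the 32 genes, 30 had enough reads for a test at D10 and D15 and 29 at D21. Hc and Fcnb never had enough in the fits of a single time point, and Cd46 did not at D21.

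RNA was sequenced from a portion of the heart of 24 wild type male Balb/c mice (BALB/cAnNCrl in the study's methods), immunized at 8 to 10 weeks of age. In experimental autoimmune myocarditis (EAM), a model in which immunity to a heart protein inflames the myocardium, mice received 100 µg of an α-myosin heavy chain peptide in 200 µl of supplemented complete Freund's adjuvant on day 0 and again on day 7, with pertussis toxin on day 0. Control mice received the same adjuvant with PBS in place of the peptide, and the same toxin, so the adjuvant and the toxin are common to every group and no heart of an untreated mouse is compared here. Hearts were taken on day 10, 15 or 21 (D10, D15 and D21), 4 from EAM and 4 from control mice at each. The study's methods state that samples were chosen, as far as possible, for the presence of inflammation, since the model may not affect every immunized mouse. Nothing in the labels says more of the replicates than that they are separate hearts, so p-values measure the spread between these hearts. Total counts per library were 15814863 to 24980864. The 4 D21 EAM libraries carry another library code than the other 20, so library code and EAM cannot be told apart at D21.

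Complement is a cascade of plasma and tissue proteins that is started along separate routes. In the classical pathway C1q binds antibody or altered surfaces and activates the proteases C1r and C1s, which cleave C4 and C2. In the lectin pathway collectins and ficolins bind sugars and act through the MASP proteases. The alternative pathway amplifies deposited C3 with factor B and is stabilized by properdin. All routes meet at C3, whose fragments coat targets and are read by receptors on leucocytes, and continue to C5 and the membrane attack complex. Regulators in plasma and on host cells stop the cascade. The liver makes most plasma complement, while C1q and properdin are known products of myeloid cells. Markers of hepatocytes were near 0 in these hearts: 6 of them summed to 0.221 to 2.69 CPM in a library (CPM, reads scaled to a common library size by TMM), and 0 of 6 had enough reads for a test.

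In control hearts the complement genes spanned a wide range of levels per length. RPKM (reads per kilobase of exon, scaled to library size) is used here to order genes by level. Ratios between genes further below are in CPM, without correction for length, and are compared only between hearts. Clu was highest at 144 ± 25.5 RPKM (mean ± SD of 12 control hearts), followed by C3 at 118 ± 46.0 RPKM and Serping1 at 109.7 ± 24.3 RPKM. C1qa (96.7 ± 26.4 RPKM), C1qb (82.2 ± 25.1 RPKM), C1qbp (57.8 ± 3.36 RPKM), C1qc (43.4 ± 11.3 RPKM) and Cd59a (38.2 ± 1.72 RPKM) followed. Neighbours among these 8 overlapped in range, and the regulators C1qbp and Cd59a had the smallest SD for their level. C1s1, the next gene at 15.2 ± 4.86 RPKM, lay below all of them without overlap. The 4 receptors lay between 4.40 ± 1.77 RPKM for Vsig4 and 0.453 ± 0.138 RPKM for C5ar2. In all, 9 genes had a mean under 1 RPKM, Cfb, C2 and Cfi among them, and Fcnb and Hc were under the floor, with 0.0391 and 0.0843 CPM where a count of 3 is 0.120 to 0.190 CPM. Hc encodes C5, the source of C5a and the first part of the attack complex. No control library had more than 5 reads of it, and the D15 EAM libraries had 8, 23, 9 and 17.

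**Figure D1:**
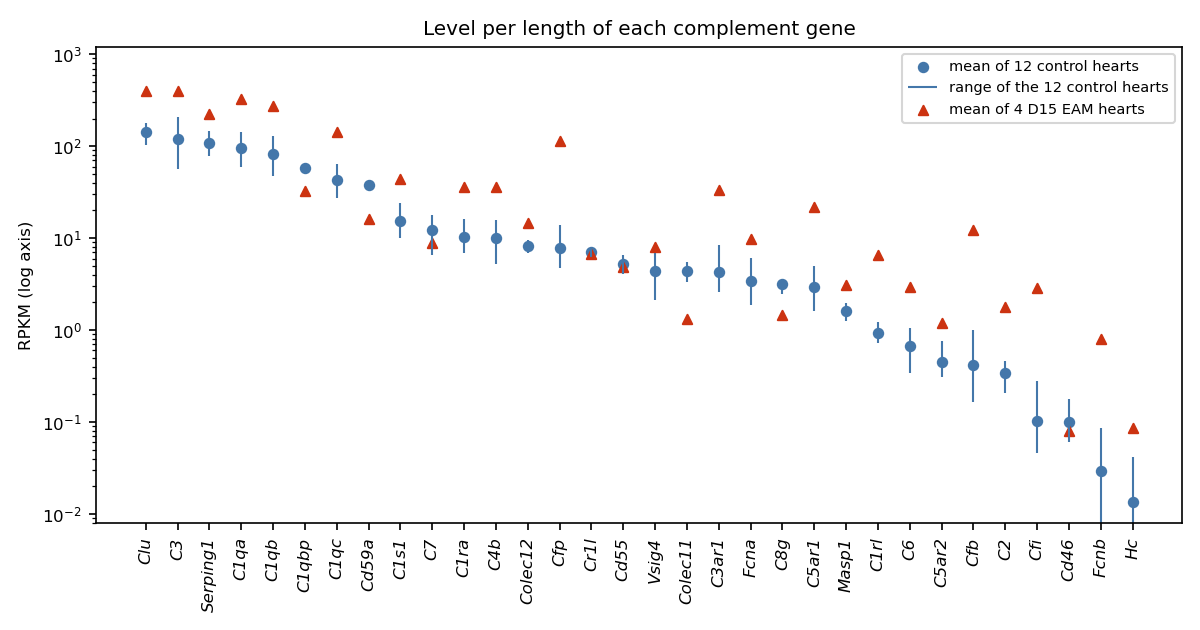
Level per length of the 32 complement genes on a log axis in RPKM, ordered by the mean of the 12 control hearts (circles, with lines for the range over the 12), with the mean of the 4 D15 EAM hearts as triangles. Clu, C3 and Serping1 lead in control hearts, while Cfp and Cfb stand far above their control range at D15.

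Control hearts differed between time points in some of these genes. All 4 D10 controls lay above all 4 D15 controls for C1qa, C1qb, C1qc, Fcna, C5ar1 and Cfb. For C1qa the D10 controls lay at 147, 142, 137 and 96.3 CPM and the D15 controls at 70.2, 87.0, 92.7 and 85.5 CPM. A different level in the controls of a day moves the EAM effect of that day, so each comparison below uses its own controls.

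No complement gene was called at D10, most were induced at D15, and fewer were called at D21. The 32 genes together took 0.196 ± 0.0238% of all counts in D15 control hearts and 0.691 ± 0.130% in D15 EAM hearts (mean ± SD, n = 4 each), and 0.219 ± 0.0302% and 0.538 ± 0.194% at D21. C3, Clu and Serping1 made up 54.4% to 67.4% of these counts in every library. A gene is called induced or repressed where edgeR's quasi-likelihood test gave a Benjamini-Hochberg adjusted p (FDR) below 0.01 and the change was 2-fold or more, which are the limits of the study's methods. At D15, 18 of the 30 tested were induced and 3 repressed, against a background of 18.1% induced and 12.9% repressed among 15693 genes tested. Complement genes had a median log2 fold change of 1.86, and all genes one of 0.02. At D21, 12 of 29 were induced and 1 repressed, with 4.13% and 1.16% of 15266 genes as the background, and the median was 1.19. In heart tissue, fewer cells of a type and less RNA per cell cannot be told apart. Of the 18 genes induced at D15, 12 were also induced at D21 and 6 (C1rl, C2, C3, C5ar1, C5ar2 and Serping1) were called at D15 only. For 17 of the 18 the log2 fold change was largest at D15, the exception being Clu. The 18 were selected by their D15 call, which favours a peak there, so no timing is read from this count. Cfi had enough reads for the test at D10, D15 and D21 only through the EAM hearts. Cfb, with 10, 11, 9 and 11 reads in the D15 controls, was 1 library short of the minimum and entered the D15 test through its EAM hearts as well. Without them 16 genes are induced at D15, and without Cfi 11 at D21.

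Most of the D21 calls ended when 1 heart was left out, other than EAM replicate 3. With any 1 of the D21 controls left out, or D21 EAM replicate 1 or 2, 0 complement genes were induced and Vsig4 was no longer repressed (edgeR's quasi-likelihood test, highest adjusted p of a called gene 0.0364, for C1qa). Without D21 EAM replicate 4 only Cfb and Cfp were induced, and Vsig4 stayed repressed. Without replicate 3 there were 15 induced, and Vsig4 was again repressed. How many of all genes were called in these fits is not given here, so the loss may not be particular to complement genes. At an unadjusted p under 0.05, 19 of the 29 were higher and 1 lower in the fit of all 8. The share of all genes at this limit is not given here for D21, so no excess is read from these counts. DESeq2 and edgeR's likelihood ratio test induced 16 each, and limma-voom 1, C6. The spread among the D21 EAM hearts was wide: replicate 3 was the lowest of the 4 for 17 of the 18 genes induced at D15, and replicate 4 or 1 the highest. At D15, by contrast, 17 to 20 genes were induced whichever heart was left out.

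**Figure D2:**
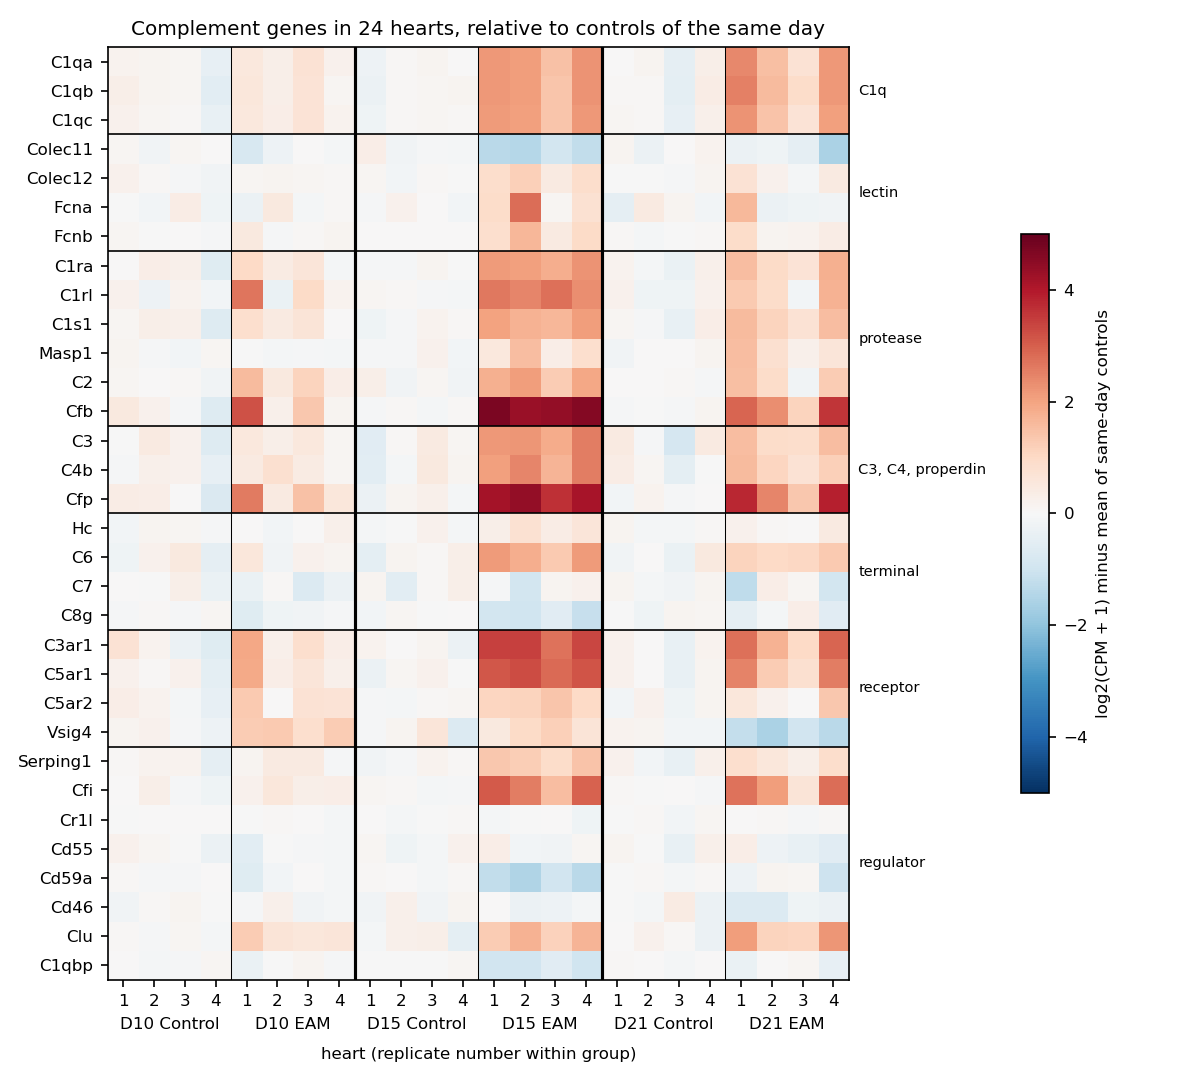
Each complement gene (lines, ordered by role) in each of the 24 hearts (columns), as log2(CPM + 1) minus the mean of the 4 controls of the same day, with red above and blue below them. The D15 EAM hearts are red for C1q, most proteases, C3, C4b, Cfp and the receptors C3ar1 and C5ar1, and blue for Colec11, C8g, Cd59a and C1qbp. D21 EAM replicate 3 is the palest of its group.

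At D10 no complement gene was called. By edgeR's quasi-likelihood test 0 of 30 were induced and 0 repressed, as for 0.0% and 0.0% of 15029 genes, and the smallest adjusted p over all genes was 0.254. At an unadjusted p under 0.05, 12 complement genes were higher in EAM and 0 lower, where 9.71% and 5.54% of all genes were. Cfi, which had enough reads for this test only through its EAM hearts, is 1 of these 12. The likelihood ratio test of edgeR called 1 gene and DESeq2 called 1, in both cases Vsig4, while limma-voom called 0. With all 12 control hearts of the 3 days as controls, 8 were induced (Cfp, Cfi, C3ar1, C1rl, C5ar2, C5ar1, Cfb and C2). This fit mixes day with EAM, as C5ar1 and Cfb were higher in D10 than in D15 controls. The share of all genes called in it is not given here. The median log2 fold change of the complement genes was 0.40, and that of all genes -0.01. The D10 hearts were far apart in both groups. Of the 18 genes induced at D15, EAM replicate 1 was the highest EAM heart for 11 and EAM replicate 4 the lowest for 11, and control replicate 4 was the lowest control for 17. Without EAM replicate 1 the log2 fold change at D10 was 0.87 in place of 2.21 for Cfb and 0.44 in place of 1.61 for C1rl.

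**Figure D3:**
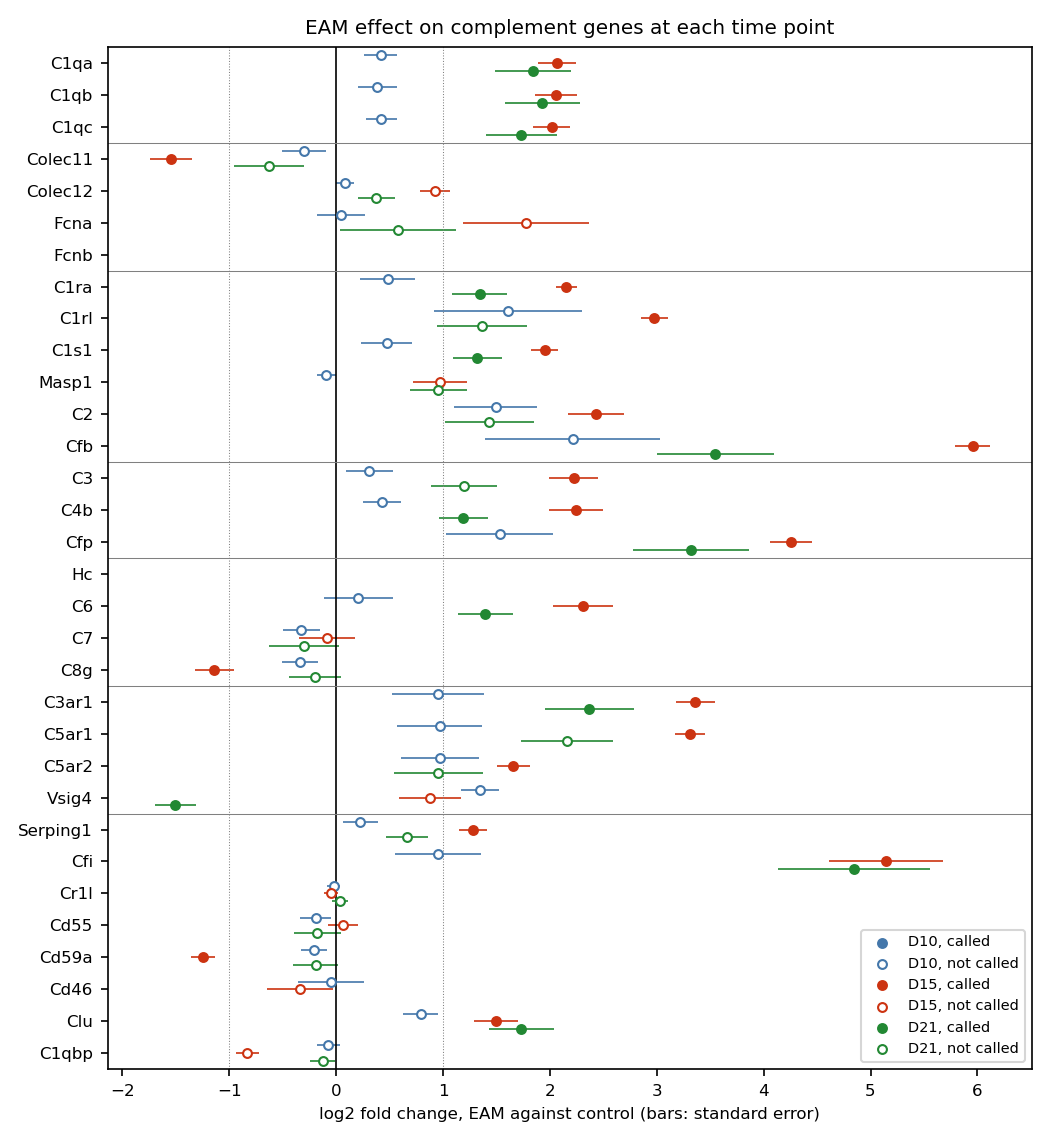
Fitted log2 fold change of EAM against control hearts for each complement gene, with its standard error as a bar, at D10 (blue), D15 (red) and D21 (green). Filled points passed both limits and open points did not. Every D10 point is open, Cfb, Cfi and Cfp have the largest D15 values, and Vsig4 is the only filled point below 0 at D21. Fcnb and Hc were not tested.

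Markers of other cells moved with these genes. The summed level of 10 macrophage markers was 2794 to 4051 CPM in EAM and 563.8 to 638 CPM in control hearts at D15, and 1210.0 to 3828 against 519 to 777 CPM at D21. Neutrophil markers summed to 518 to 826 against 15.9 to 79.3 CPM at D15, and fibroblast markers to 4511 to 10520.0 against 1460.0 to 1716 CPM. Ptprc, the leucocyte antigen CD45, was at 243.5 to 305 CPM in EAM and 16.5 to 20.7 CPM in control hearts at D15. By the same limits 6 of 10 macrophage, 6 of 6 neutrophil, 6 of 6 T cell and 2 of 6 fibroblast markers were induced at D15 and 3 of 6 cardiomyocyte markers repressed, and at D21 3 macrophage, 1 neutrophil, 6 T cell and 2 fibroblast markers were induced. At D10 EAM replicate 1 had the highest macrophage markers of its group, 2586 CPM, and the others 887 to 1464 CPM. At D21 EAM replicate 3 had the lowest, 1210.0 CPM. The part of these cells in the complement values was not tested.

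The 3 chains of C1q, which assemble in equal number into the recognition molecule of the classical pathway, were induced together at D15 and D21. Their genes lie next to each other on chromosome 4, C1qa (ENSMUSG00000036887) from 136895917 to 136898803, C1qc from 136889804 to 136893065 and C1qb from 136880129 to 136886187 (GRCm38, all on the minus strand). C1qa was at 381, 358, 229.5 and 399 CPM in the D15 EAM hearts and at 70.2, 87.0, 92.7 and 85.5 CPM in the controls. No EAM heart overlapped with a control, and EAM replicate 3 was the lowest of its group for all 3 chains. The log2 fold change at D15 was 2.07 for C1qa (standard error 0.18, adjusted p = 7.5e-06 by edgeR), 2.06 for C1qb and 2.02 for C1qc.

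At D21 C1qa was at 453, 244, 141 and 388 CPM in EAM and 88.0, 93.3, 62.2 and 106 CPM in control hearts. The EAM hearts again lay above all controls but spread over a wider range than at D15. The log2 fold changes were 1.84, 1.93 and 1.73 for C1qa, C1qb and C1qc (adjusted p = 0.00939, 0.00778 and 0.00920, edgeR). With 1 library left out C1qa lay between 1.60 and 2.07 on the log2 scale, and all 3 calls ended in 7 of the 8 such fits, the one without EAM replicate 3 excepted. The chains kept nearly the same proportion to each other. The ratio of C1qa to C1qb in CPM was 0.996 to 1.21 over all 24 hearts, and that of C1qc to C1qb 0.795 to 1.02. In D21 EAM hearts C1qc per C1qb was below every D21 control (0.795 to 0.887, against 0.889 to 1.02 in D21 controls).

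Of the 6 proteases, 5 were induced at D15 and 3 at D21. Cfb, which encodes factor B, the protease of the alternative pathway, had the largest fitted fold change of the 30 complement genes tested at D15. It was at 40.4, 29.8, 31.6 and 36.5 CPM in D15 EAM hearts and at 0.521, 0.649, 0.466 and 0.648 CPM in D15 controls. The groups were far apart, 62.0-fold (log2 fold change 5.96, standard error 0.16, adjusted p = 1.3e-08, edgeR). At D21 the EAM hearts lay at 15.6, 9.91, 3.67 and 25.1 CPM and the controls at 1.12, 1.15, 1.09 and 1.38 CPM, a log2 fold change of 3.55 (adjusted p = 0.00588, edgeR). The call held without EAM replicate 3 or 4 and ended without any 1 of the other 6 hearts. At D10 only EAM replicates 1 and 3 lay above the controls, at 23.82 and 5.96 CPM, where the controls ranged over 0.727 to 2.80 CPM.

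C1ra and C1s1 encode the C1r and C1s proteases that C1q carries. C1ra rose from 24.01, 23.7, 27.4 and 24.9 CPM in D15 controls to 114, 107, 91.5 and 121 CPM in EAM hearts (log2 fold change 2.15, standard error 0.10, adjusted p = 1.4e-07, edgeR). C1s1 was at 31.4 to 41.6 CPM in these controls and 119 to 159 CPM in the EAM hearts, a log2 fold change of 1.95. Neither gene's groups overlapped. Both were induced at D21 as well, with log2 fold changes of 1.35 and 1.32, and both calls held only where EAM replicate 3 was the library left out. C1rl, a C1r-like serine protease, was at 21.3, 18.3, 23.0 and 17.2 CPM in D15 EAM hearts and 2.35 to 2.87 CPM in controls (log2 fold change 2.98, standard error 0.13, adjusted p = 9.9e-08, edgeR). At D21 EAM replicate 3 lay within the control range at 2.67 CPM, and C1rl did not pass (adjusted p = 0.0381, edgeR).

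C2, the C4b-bound protease of the classical and lectin routes, was at 4.51 to 8.68 CPM in EAM and 1.001 to 1.77 CPM in control hearts of D15 (log2 fold change 2.43, adjusted p = 2.9e-05, edgeR). At D10 all 4 EAM hearts were already above the controls, at 5.08, 1.81, 3.34 and 1.53 CPM against 0.793 to 1.14 CPM, without passing the adjusted test. At D21 EAM replicate 3 lay below the controls, the other 3 above them, and C2 did not pass (adjusted p = 0.0314, edgeR). Masp1, a protease of the lectin pathway, was the exception among the proteases. It was 1.96-fold higher at D15 (adjusted p = 0.00608, edgeR), short of the 2-fold limit, and 1.94-fold at D21. D15 EAM replicate 2 was the highest heart for it at 48.3 CPM, with 23.4, 20.2 and 28.9 CPM in the others.

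The counts of some of these genes depend on how reads were assigned among genes that overlap or share stretches of sequence. The exons of Gm20547 cover 79.5% of the exonic bases of Cfb and 42.8% of those of C2 on the same strand. Stretches of 75 bases, the length of a read, occurred in another gene's transcript for 69.9% of positions in Cfb, 37.0% in C2, 42.4% in C1ra (mostly C1rb), 22.7% in C4b (C4a) and 13.0% in C1s1 (C1s2). The levels of these 5 genes, and their place in an order of levels, are uncertain to that extent. C1s1 also shares 18.4% of its exonic bases with an antisense gene. The library kit marks strand, but the sources used here do not say whether the counting used strand.

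The 3 central components were all induced at D15. C3 (ENSMUSG00000024164, chromosome 17 from 57203970 to 57228136), on which all routes meet, lay at 1970.0, 2008, 1608 and 2620.0 CPM in D15 EAM hearts and at 294, 454, 594 and 466 CPM in the controls. The lowest EAM heart was thus well above the highest control (log2 fold change 2.22, standard error 0.23, adjusted p = 2.5e-05, edgeR). At D21 C3 lay at 1563, 1005, 975 and 1533 CPM in EAM and 729, 511, 296 and 724 CPM in control hearts, without overlap but short of the limit (log2 fold change 1.195, adjusted p = 0.0223, edgeR). C4b, the target of C1s, was at 144 to 259 CPM in EAM hearts at D15 and at 29.7 to 61.7 CPM in their controls (log2 fold change 2.25, adjusted p = 3.8e-05) and was 1.19 higher on the log2 scale at D21 (adjusted p = 0.00920, edgeR), a call that held only where EAM replicate 3 was the library left out.

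Cfp (ENSMUSG00000001128, chromosome X from 20925454 to 20931555) encodes properdin, which holds the alternative convertase together. It was at 205, 238, 141 and 198 CPM in D15 EAM hearts against 8.23, 11.7, 12.6 and 9.60 CPM in controls, 19.1-fold (log2 fold change 4.25, standard error 0.20, adjusted p = 1.6e-07, edgeR). At D21 its EAM hearts spread from 30.0 CPM in replicate 3 to 181 CPM in replicate 4, all above the controls at 10.3 to 12.7 CPM (log2 fold change 3.32, adjusted p = 0.00644, edgeR). The D21 call ended without any 1 of the D21 controls or EAM replicate 1 or 2. At D10 the EAM hearts were at 117, 25.4, 53.0 and 27.2 CPM and the controls at 24.3, 23.1, 18.6 and 10.6 CPM. They did not overlap, but replicates 2 and 4 were close to the highest control, and the test did not pass (adjusted p = 0.328, edgeR). Without replicate 1 the log2 fold change at D10 was 0.86 in place of 1.53.

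**Figure D4:**
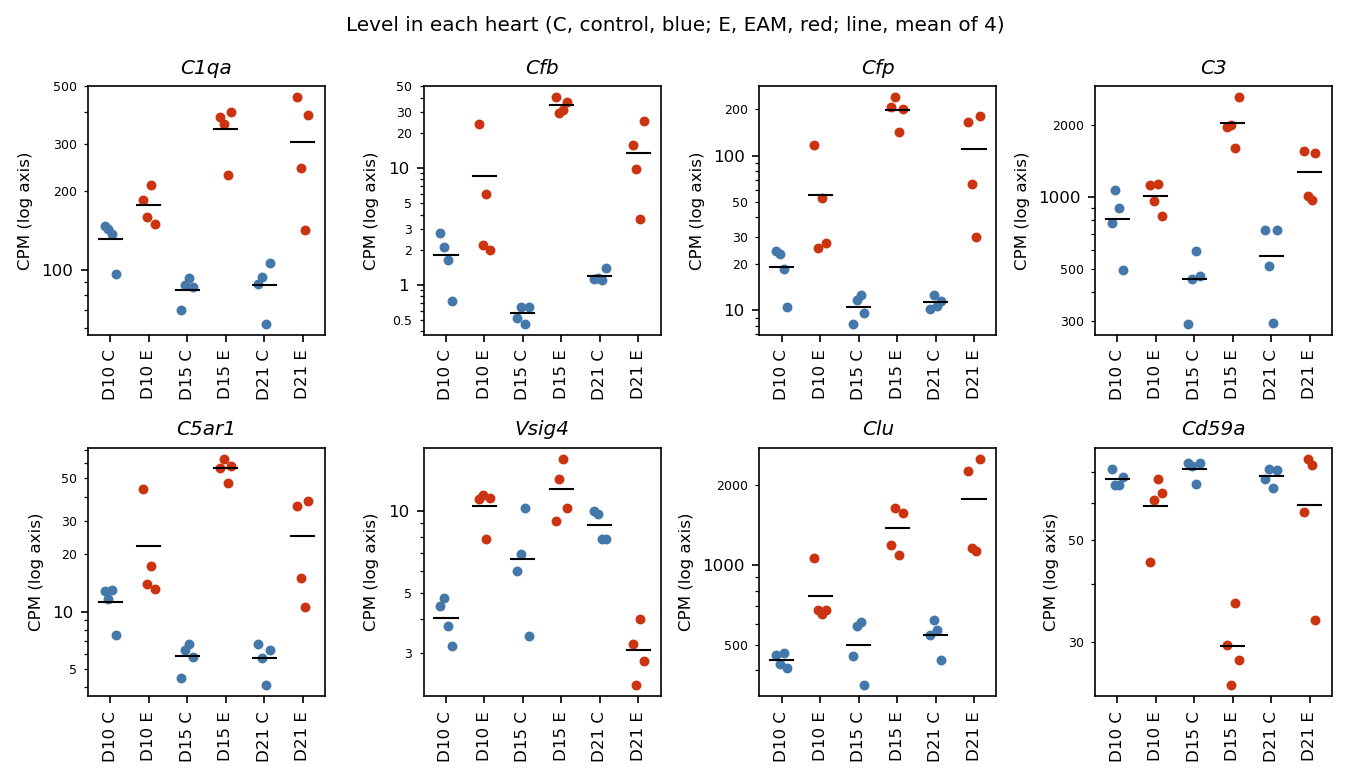
Level of 8 complement genes in each heart in CPM on a log axis, control hearts in blue and EAM hearts in red, with a line at the mean of the 4. C1qa, Cfb, Cfp, C3 and C5ar1 have all D15 EAM hearts above all controls, Cd59a has them below, and Vsig4 is above its controls at D10 and below them at D21.

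Of the lectin-type recognition molecules, 3 were tested and none was induced on any day by edgeR's quasi-likelihood test of all 8 hearts. Colec11, a soluble collectin, fell at D15 from 8.23, 5.43, 6.01 and 5.83 CPM in controls to 1.83, 1.75, 2.87 and 2.08 CPM in EAM hearts (log2 fold change -1.54, standard error 0.20, adjusted p = 9.0e-05, edgeR). At D21 only EAM replicate 4 was that low, at 1.93 CPM, and the groups overlapped. Colec12, a scavenger receptor with a collectin domain, was 1.90-fold higher at D15 with an adjusted p of 2.4e-04 (edgeR), just short of 2-fold. With 1 heart left out its log2 fold change was 0.83 to 1.08 at an adjusted p of 0.00136 or less (edgeR), so at least 1 of these fits called it. Fcna, ficolin A, was high in a single heart of each later EAM group: D15 EAM replicate 2 had 33.4 CPM and D21 EAM replicate 1 13.7 CPM, while the other EAM hearts had 4.39 to 8.45 CPM at D15 and 2.94 to 3.25 CPM at D21. Its log2 fold change at D15 was 1.78 (adjusted p = 0.0201, edgeR), and 0.82 without replicate 2. Over all fits with 1 heart left out it was 0.82 to 2.11, with adjusted p of 0.00409 to 0.0490 (edgeR). DESeq2 and edgeR's likelihood ratio test called Fcna induced at D15. Fcnb, ficolin B, had 0 reads in each of the 4 D15 controls and 19, 61, 9 and 24 reads in the D15 EAM hearts, and was not tested at D15.

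Of the 3 terminal components tested, C6 was induced at D15 and D21, and Hc was not tested. It lay at 12.4, 9.88, 6.75 and 12.6 CPM in D15 EAM hearts and 1.198, 2.42, 2.23 and 2.83 CPM in controls (log2 fold change 2.31, adjusted p = 6.1e-05, edgeR), and at 5.72 to 7.28 against 1.62 to 3.74 CPM at D21 (log2 fold change 1.40). Of the 8 fits with a D21 heart left out, only that without EAM replicate 3 kept this call. C7, the partner that joins the complex after C6, had overlapping groups on every day, with log2 fold changes of -0.32, -0.09 and -0.30. C8g, the lipocalin chain of C8, fell at D15, with EAM hearts at 1.66 to 2.95 CPM and controls at 4.38 to 5.31 CPM (log2 fold change -1.14, adjusted p = 3.3e-04, edgeR). It was not called at D21, when D21 EAM replicate 3 had the highest level of all 8 hearts at 5.81 CPM.

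The receptors divided into the anaphylatoxin receptors and Vsig4. C3ar1 and C5ar1, which bind the fragments C3a and C5a on myeloid cells, were both induced at D15, 10.3-fold and 9.93-fold. C3ar1 was at 161, 159, 98.2 and 152 CPM in EAM and 15.9, 14.4, 15.4 and 11.2 CPM in control hearts (log2 fold change 3.36, standard error 0.18, adjusted p = 4.4e-07, edgeR). C5ar1 was at 56.8, 63.3, 47.3 and 58.2 CPM and 4.48, 6.32, 6.78 and 5.77 CPM (log2 fold change 3.31, standard error 0.14, adjusted p = 9.5e-08, edgeR). The groups did not overlap for either gene. C5ar2, the other C5a receptor, which does not couple to G proteins, rose less, with EAM hearts at 3.70 to 5.15 CPM and controls at 1.24 to 1.53 CPM (log2 fold change 1.66, adjusted p = 1.3e-05, edgeR).

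At D21 C3ar1 was still induced (log2 fold change 2.37, adjusted p = 0.00731, edgeR), though in fits with a heart left out only that without EAM replicate 3 kept the call. C5ar1 lay at 35.9, 15.0, 10.6 and 38.0 CPM in EAM hearts, all above the controls at 4.11 to 6.76 CPM, and missed the limit with an adjusted p of 0.0101 (edgeR). C5ar2 had overlapping groups. At D10 C5ar1 was higher in every EAM heart than in any control, with replicate 1 at 43.8 CPM and the others at 13.1 to 17.4 CPM, but did not pass (adjusted p = 0.328, edgeR). Without replicate 1 its log2 fold change was 0.39 in place of 0.97.

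Promoter sequences are shown for the 4 called genes with the largest D15 fold change among those with a mean of at least 5 CPM that the RefSeq table (GRCm38.p6) holds, since these genes rose together at D15. Each line gives the 250 bases before the RefSeq start, 5′ to 3′ on the gene's strand, with a match to a searched motif in capitals. The table held 23 of the 32 complement genes, and Cfb and Cfi were not among them.
Cfp, chrX:20931556-20931805, minus strand: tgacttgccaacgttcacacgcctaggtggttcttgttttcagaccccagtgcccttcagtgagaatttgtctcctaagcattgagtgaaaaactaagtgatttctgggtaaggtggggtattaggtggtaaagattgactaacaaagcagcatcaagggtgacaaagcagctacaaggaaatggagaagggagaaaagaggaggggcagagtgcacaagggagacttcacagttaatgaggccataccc
C3ar1, chr6:122856158-122856407, minus strand: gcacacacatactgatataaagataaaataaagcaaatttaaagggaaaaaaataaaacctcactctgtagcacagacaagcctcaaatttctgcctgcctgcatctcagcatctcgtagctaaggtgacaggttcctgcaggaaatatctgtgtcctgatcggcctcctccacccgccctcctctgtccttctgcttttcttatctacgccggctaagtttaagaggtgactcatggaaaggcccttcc
C5ar1, chr7:16259339-16259588, minus strand: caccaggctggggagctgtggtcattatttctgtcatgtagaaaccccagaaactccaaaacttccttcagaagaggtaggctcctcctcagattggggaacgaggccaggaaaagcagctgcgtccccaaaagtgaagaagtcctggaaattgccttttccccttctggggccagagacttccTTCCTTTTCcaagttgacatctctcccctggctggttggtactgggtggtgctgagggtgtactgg
C1rl, chr6:124492863-124493112, plus strand: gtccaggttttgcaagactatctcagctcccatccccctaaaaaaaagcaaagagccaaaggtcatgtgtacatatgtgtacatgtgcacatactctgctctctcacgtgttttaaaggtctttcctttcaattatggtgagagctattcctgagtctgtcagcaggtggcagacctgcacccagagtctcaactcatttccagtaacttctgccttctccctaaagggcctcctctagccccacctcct

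Motifs were searched on both strands in this window. The capitals in the C5ar1 promoter are a match to an interferon-response core, GAAANNGAA, read on the opposite strand, with its first base 66 bases before the start. This motif was found in 3 complement genes of the 23 (C5ar1, Cd59a and Colec11) and in 7.13% of 32851 promoters. The STAT-type motif TTCNNNGAA was in C7 and Colec11 and in 7.02% of promoters. The PU box GAGGAAG was in C1qc, C5ar2 and Fcna and in 10.6% of promoters. The NF-kappaB core GGANTTTCC was in 0 of the 23 and in 1.07% of promoters. A match describes these letters only. Both interferon-core genes other than C5ar1 were repressed at D15.

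Vsig4 (ENSMUSG00000044206, chromosome X from 96247203 to 96293438) encodes CRIg, a receptor for C3b found on tissue macrophages. It was the one complement gene repressed at D21. At D10 it was at 11.1, 11.4, 7.91 and 11.1 CPM in EAM hearts and 4.45, 4.76, 3.76 and 3.17 CPM in controls. All EAM hearts lay above all controls with little spread, but the adjusted test did not pass (log2 fold change 1.35, standard error 0.18, adjusted p = 0.254, edgeR's quasi-likelihood test). At D15 the groups overlapped, at 9.15 to 15.5 and 3.47 to 10.2 CPM. At D21 Vsig4 was repressed, at 3.25, 2.29, 4.01 and 2.81 CPM in EAM hearts and 10.0, 9.75, 7.88 and 7.88 CPM in controls (log2 fold change -1.505, standard error 0.19, adjusted p = 0.00473, edgeR). Here every EAM heart lay below every control. The call ended in 6 of the 8 fits with a heart left out (any 1 control, EAM replicate 1 or 2), with log2 fold changes between -1.65 and -1.38 over all libraries left out.

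The difference between the EAM effects was tested directly for Vsig4. From D15 to D21 it was -2.37 on the log2 scale (standard error 0.35, adjusted p = 6.7e-04, edgeR), and it passed with each of the 16 libraries left out in turn. Controls of Vsig4 also differed in level between days, 4.04 ± 0.713 CPM at D10, 6.66 ± 2.78 CPM at D15 and 8.88 ± 1.16 CPM at D21 (mean ± SD, n = 4 each). Of the macrophage markers, Cd163 lay at 17.2 to 22.3 CPM in D21 EAM hearts, below all D21 controls at 29.8 to 35.3 CPM. Folr2 (13.3 to 19.0 against 17.5 to 26.1 CPM), Lyve1 (14.3 to 22.6 against 19.6 to 26.3 CPM), Mrc1 (71.0 to 161 against 65.1 to 78.1 CPM) and Cx3cr1 (19.6 to 51.9 against 24.8 to 38.1 CPM) had overlapping groups. Csf1r (157 to 439.6 against 104 to 136 CPM), Adgre1 (45.3 to 125 against 23.1 to 35.4 CPM) and Cd68 (45.4 to 162 against 13.7 to 19.7 CPM) lay above all controls. Their part in the level of Vsig4 was not tested. The library code of the D21 EAM hearts cannot be told apart from this difference.

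The 8 regulators went separate ways. The soluble ones, Serping1, Cfi and Clu, were induced at D15, whereas the membrane-bound Cr1l, Cd55 and Cd46 had overlapping groups on every day and Cd59a was repressed at D15. Cfi encodes factor I, which cuts C3b and C4b. It was barely detected in controls, with 5, 4, 2 and 2 reads at D15, and had 216, 169, 58 and 209 reads in the D15 EAM hearts. In CPM the EAM hearts lay at 8.98, 5.92, 2.45 and 8.06, and all lay far above the controls at 0.104 to 0.260 CPM. Since the controls were at or near the floor of 3 reads, the size of the change is uncertain, and the fitted log2 fold change was 5.14 (standard error 0.53, adjusted p = 2.4e-05, edgeR). At D21 it was at 6.50, 3.87, 0.802 and 7.01 CPM against 0.102 to 0.203 CPM (log2 fold change 4.84, adjusted p = 0.00545, edgeR). The D21 call ended with any 1 of the controls left out, and with any EAM heart of D15 or D21 left out too few libraries had 10 reads for a test.

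Serping1, the C1 inhibitor, which stops C1r, C1s and the MASP proteases, was abundant in controls at 194, 208, 250.1 and 228 CPM and rose to 555, 520.0, 416 and 594 CPM at D15 (log2 fold change 1.28, adjusted p = 2.1e-05, edgeR). At D21 it was 1.58-fold higher, with no overlap, but did not pass (adjusted p = 0.0317, edgeR). Clu (ENSMUSG00000022037, chromosome 14 from 65968483 to 65981547) encodes clusterin, a chaperone that also blocks the terminal complex. Its EAM hearts lay at 1193, 1632, 1087 and 1574 CPM at D15 against 453, 588, 606 and 352 CPM in controls (log2 fold change 1.496, adjusted p = 1.4e-04, edgeR). At D21 they lay at 2266, 1153, 1127 and 2512 CPM against 545, 618, 568 and 437 CPM. Replicates 1 and 4 stood well above replicates 2 and 3, and the log2 fold change of 1.73 (adjusted p = 0.00731, edgeR) was called, and in fits with a heart left out only that without EAM replicate 3 kept it. At D10 Clu was already higher in every EAM heart, 653 to 1058 against 408 to 465 CPM, without passing (adjusted p = 0.328, edgeR).

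Cd59a, the membrane protein that keeps the attack complex from forming on host cells, fell at D15 from 73.3, 72.2, 66.1 and 73.3 CPM to 29.5, 24.2, 36.4 and 27.4 CPM. All EAM hearts lay under all controls, 2.36-fold lower (log2 fold change -1.24, standard error 0.11, adjusted p = 1.1e-05, edgeR). At D21 the EAM hearts ranged from 33.4 CPM in replicate 4 to 74.96 CPM in replicate 2 and overlapped with the controls at 64.9 to 71.1 CPM. C1qbp, a C1q-binding protein that sits mainly in mitochondria, was also lower at D15, at 83.0 to 115 against 165 to 179 CPM, with an adjusted p of 7.3e-05 (edgeR) but less than a 2-fold change (log2 fold change -0.83). Cardiomyocyte markers stood lower in the same hearts, 6 of them summing to 6737 to 17320 CPM in EAM and 24620 to 29060 CPM in control hearts at D15. The sum of 5 endothelial markers was also lower, 653 to 711 against 944 to 1259 CPM, as was the share of counts from mitochondrial genes, 3.19% to 4.31% against 6.10% to 7.14%. The part of these in the values of Cd59a and C1qbp was not tested.

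Cr1l encodes Crry, the membrane regulator of C3 convertases in mice, and was among the steadiest of the complement genes. Its level at D15 was 69.1 ± 4.78 CPM with EAM and 73.2 ± 3.35 CPM without (mean ± SD, n = 4 each), and its log2 fold changes were -0.02, -0.05 and 0.04, with standard errors of 0.06 to 0.08. Cd55, which speeds the decay of convertases, had log2 fold changes of -0.19, 0.07 and -0.18. Cd46, a cofactor for factor I that in mice is known mainly from the testis, was at 0.570 to 1.12 CPM in D15 controls, near the floor. Neither passed on any day tested (edgeR).

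Pairs of complement genes were also compared as a ratio within each heart, to see whether they rose by equal amounts, with an exact two-sided permutation test of 4 against 4 hearts on log2 ratios. The 12 ratios were chosen after the data were seen, and each was tested on 3 days. With 4 against 4 hearts the smallest p this test can give is 0.0286. It was reached in 18 of the 36 tests, which made it 0.0571 after Benjamini-Hochberg adjustment, so none passed an adjusted 0.05. At D15 the ratio of C5ar1 to C5ar2 in CPM was 9.19 to 15.7 in EAM and 3.44 to 5.09 in control hearts, without overlap (exact permutation p = 0.0286). Cfb per C3 was 0.0139 to 0.0205 against 0.000785 to 0.00177. C1s1 per Serping1, a protease against its inhibitor, was 0.237 to 0.286 against 0.162 to 0.170, and C3 per Cr1l 21.9 to 41.7 against 3.98 to 8.16, all with the same exact p. These 4 ratios were higher in every EAM heart at D21 as well and overlapped at D10. C1ra per C1s1 overlapped on every day.

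C1qb was also set against leucocyte genes. Per Cd68, a lysosomal macrophage marker, C1qb was 1.37 to 2.05 in D15 EAM and 4.53 to 5.91 in D15 control hearts, lower in every EAM heart although C1qb itself was higher (exact permutation p = 0.0286). Per Csf1r it was 0.456 to 0.598 against 0.637 to 0.826 at D15 and turned at D21 to 0.774 to 1.10 against 0.498 to 0.715, higher in every EAM heart (exact permutation p = 0.0286 on both days). The ratios of C1qb to Cd68 and Ptprc did not turn. Per Cd68, C1qb was 2.65 to 3.58 against 3.81 to 5.57 at D21. Per Ptprc it was 0.792 to 1.25 against 3.56 to 4.67 at D15 and 1.49 to 2.90 against 2.92 to 4.19 at D21. All 3 were lower in every EAM heart, with the same exact p. Vsig4 per C1qb was higher in every EAM heart at D10, at 0.0429 to 0.0894 against 0.0307 to 0.0392, overlapped at D15, and was lower in every EAM heart at D21, at 0.00758 to 0.0283 against 0.0812 to 0.151 (exact permutation p = 0.0286 at D10 and D21). Vsig4 per Csf1r overlapped at D10 and D15 and was 0.00640 to 0.0255 against 0.0581 to 0.0879 at D21, with the same exact p.

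Whether the EAM effect changed from one day to the next was tested in a fit of all 24 libraries. From D10 to D15 the effect rose for 14 of 31 complement genes and fell for 1, Cd59a, by edgeR's quasi-likelihood test, where 5.38% of 16318 genes rose and 7.35% fell. Among the genes called, Cfi (4.13 on the log2 scale, edgeR adjusted p = 0.00234) and Cfb (3.69, adjusted p = 0.00538) rose most. Cfp (2.67), C3ar1 (2.36) and C5ar1 (2.29) followed. Cfi, 1 of the 14, entered this fit only through EAM hearts. It had 2 to 5 reads in the D15 controls, so the size of its rise is uncertain. C1rl, C2, C5ar2 and Clu, though induced at D15, did not pass for the difference (edgeR adjusted p = 0.141, 0.190, 0.287 and 0.117). The rise of Cfb passed in only 7 of 16 fits with a library left out. It ended without D10 control replicate 1 or 2, D10 EAM replicate 3, any 1 of the D15 controls, or D15 EAM replicate 1 or 4, and it was 5.03 without D10 EAM replicate 1. That of Serping1 (1.005) lay at the 2-fold limit and ended without D10 control replicate 1, 2 or 3, D10 EAM replicate 1 or 4, D15 control replicate 1 or 2, or D15 EAM replicate 4. The fall of Cd59a ended without D15 EAM replicate 2.

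From D15 to D21 the effect was lower for 17 of the 18 genes induced at D15, but 0 of these 18 passed for the difference by edgeR's quasi-likelihood test. Selection of the 18 by their D15 effect in itself favours a lower value at D21. Over all 31 complement genes 1 fell, Vsig4, and 1 rose, Cd59a, where 0.919% of 16318 genes fell and 2.74% rose. At an unadjusted p under 0.05, 10 complement genes were lower and 4 higher, and DESeq2, the likelihood ratio test and limma-voom each called 1 lower. No share of all genes at that unadjusted limit is given here, so these counts have no background. C4b (-1.04, adjusted p = 0.0265) and C3 (-1.02, adjusted p = 0.0536) came nearest among the induced genes. The effect on Cd59a returned toward 0, by 1.07 (adjusted p = 0.00436, edgeR), a call that ended where replicate 2 or 4 of D15 EAM, replicate 3 of D21 control or replicate 2 or 3 of D21 EAM was left out. C1qbp moved the same way by 0.72 (adjusted p = 0.00430), under the 2-fold limit.

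Beside the 32 genes, 25 further complement genes were counted, of which 12 had enough reads for a test at each time point. At D15, 6 of them were induced (C4a, C1rb, C1s2, Itgam, Itgb2 and Itgax) and 3 repressed (Cd59b, Cpn2 and Vtn), and at D21, 4 were induced (C1rb, Itgam, Itgb2 and Itgax). C4a, C1rb and C1s2 share 75-base stretches with C4b (22.7% of its positions), C1ra (40.1%) and C1s1 (13.0%), so some reads may be shared. Itgam, Itgax and Itgb2 encode the chains of the C3 fragment receptors CR3 and CR4 of leucocytes. Itgam was at 342 to 576 CPM in EAM and 9.95 to 16.8 CPM in control hearts at D15, and Itgb2 at 308 to 522 and 9.43 to 12.4 CPM (log2 fold changes 4.95 and 5.30, adjusted p = 1.6e-07 and 3.2e-08, edgeR). Itgax was at 63.4 to 152 against 0.945 to 2.59 CPM (log2 fold change 6.23).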

How the data were processed

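Read pairs of 75 bases were aligned to GRCm38 with HISAT2 2.0.4, duplicates were removed with Picard, and reads were assigned to Ensembl release 69 genes with featureCounts, according to the study's methods and the submitters' processing notes. The authors deposited the resulting raw counts for 41388 genes and 92 spike-ins, which had 0 reads. Removing duplicates can hold down counts of abundant genes.

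Counts were tested with edgeR 4.0.16 (quasi-likelihood test, TMM normalization, a minimum of 10 reads in 4 or more libraries, Benjamini-Hochberg adjustment over all genes) in R 4.3.3, with EAM against control hearts within each day, and changes of the EAM effect between days in a fit of 24 libraries. A gene was called at an adjusted p under 0.01 and at least a 2-fold change. The fit was checked on simulated data with known changes. DESeq2 1.42.0, limma-voom (limma 3.58.1), other filters, controls and limits, a replicate block and each library left out were alternatives. CPM were TMM-normalized over all libraries, and RPKM used exon lengths of the GENCODE annotation of GRCm38.

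The named genes are all 32, plus the 4 other complement genes with the highest mean CPM among those tested at D15, of which 1 is not reported here. Promoters followed the rule given beside them. Members, lists and tests were chosen with earlier results of these data known, and further called genes of the other list are named after their values were seen. Protein sequences of the C1q chains, planned for printing, were not used here.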

Additional observations from a re-analysis of the deposited data

Results flagged for a closer look

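In 12 of 178 groups of 4 hearts, 1 heart stood apart from the other 3 by Dixon's criterion, which chance gives in about 1 of 20 groups (5%). C5ar1 and Clu were high in D10 EAM replicate 1, at 43.8 CPM (the others 13.1 to 17.4) and 1058 CPM (653 to 676), and Cd55 was low there at 18.7 CPM (25.6 to 26.9). Fcna was high in D15 EAM replicate 2 at 33.4 CPM (4.39 to 8.45) and in D21 EAM replicate 1 at 13.7 CPM (2.94 to 3.25). D15 EAM replicate 3 was low for C3ar1 at 98.2 CPM (151.5 to 161) and high for C1qbp at 115.0 CPM (83.0 to 87.1). Vsig4 was low in D10 EAM replicate 3 at 7.91 CPM (11.1 to 11.4). Among D15 controls, replicate 1 was low for C1qb at 59.9 CPM and C1qc at 60.0 CPM, replicate 3 for Cd59a at 66.1 CPM, and replicate 4 was high for C1qbp at 179 CPM.

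The EAM effect differed between D10 and D15 by edgeR's quasi-likelihood test for 15 complement genes. The differences in log2 fold change, D15 minus D10, were 1.60 for C1qa, 1.62 for C1qb, 1.54 for C1qc, 1.61 for C1ra, 1.43 for C1s1 and 3.69 for Cfb. They were 1.86 for C3, 1.77 for C4b, 2.67 for Cfp, 2.05 for C6, 2.36 for C3ar1, 2.29 for C5ar1, 1.005 for Serping1, 4.13 for Cfi and -1.08 for Cd59a. Between D15 and D21 the effect differed for Vsig4, by -2.37, and Cd59a, by 1.07 (D21 minus D15).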

How the results depend on the processing

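No call turned to the opposite direction under any alternative. Of 2381 values of single genes under the alternatives, 2225 kept their side of the limits, 33 newly passed and 123 no longer passed. Among all these, 29 changed sign without a call in either fit. At D10, 0 genes were induced, but DESeq2 gave 1 and edgeR's likelihood ratio test 1, and all 12 control hearts as controls gave 8. At D21, 12 were induced, limma-voom gave 1, and 16 was the highest count, from DESeq2 among others. Genes with a smaller effect at D21 than at D15 numbered 1, and 2 at an FDR limit of 0.05, C4b being added. The cause of these changes was not tested. Leaving out 1 library gave 0 to 0 genes induced at D10, 17 to 20 induced and 3 to 3 repressed at D15, 0 to 15 induced and 0 to 1 repressed at D21, 12 to 15 with a larger effect at D15 than D10, and 1 to 1 with a smaller effect at D21 than D15. Without an EAM heart of D15 or D21, Cfi had too few libraries with reads to be tested on that day.

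The labels number replicates 1 to 4 in every group, without saying that a number joins an EAM and a control heart. The correlation of same-numbered deviations lay between -0.08 and 0.37 at D10, -0.10 and 0.04 at D15, and 0.10 and 0.30 at D21. At D21 3 of 4 EAM hearts, and every control heart, correlated best with their own number, a hint from the data only. With the replicate block 0 genes (D10), 18 genes (D15) and 12 genes (D21) were induced. At D21 C3 and C5ar1 entered and Cfp and Clu left, while 13 genes had a larger effect at D15 than D10. A count of 3 corresponds to 0.120 to 0.190 CPM, so low levels of Cd46, Hc and Fcnb in single hearts lie near the detection limit. The D15 EAM hearts lay above it, with 19, 61, 9 and 24 reads of Fcnb and 8, 23, 9 and 17 of Hc.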
